A study of Bos taurus with 16 samples.

Results

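The receptors for oestradiol (ESR1, ESR2), progesterone (PGR), cortisol (NR3C1) and aldosterone (NR3C2), the progesterone receptor membrane components PGRMC1 and PGRMC2 and the oxytocin receptor OXTR were read by 22 of the 46615 probes on a bovine microarray. These were all the probes, control spots aside, whose gene name in the scanner files equals one of the 8 symbols: 4 each for ESR1 and NR3C1, 3 each for ESR2, PGR and PGRMC1, 2 each for PGRMC2 and OXTR, and 1 for NR3C2. Endometrial biopsies and circulating white blood cells (WBC, from whole blood in RNA-stabilizing tubes) had been taken at 45 to 55 days postpartum from the same 8 Holstein cows, 4 healthy and 4 with subclinical endometritis (SCE), an inflammation of the uterine lining without outward signs. This gave 16 arrays in 4 groups of 4, namely healthy and SCE endometrium and healthy and SCE WBC, with no agent given to any group per the labels. Per the methods the cows were adults that had calved more than once, and the labels give no age for a single animal. Per the study's methods both status groups held cows in the luteal and in the follicular phase of the cycle, with more luteal cows in the SCE group, but the labels tie no phase to a cow, so the phase of a given animal is not used here.

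ESR1, ESR2, PGR, NR3C1 and NR3C2 are hormone-activated transcription factors that bind DNA through a pair of zinc fingers, whereas OXTR is a G protein-coupled receptor at the cell surface and PGRMC1 and PGRMC2 are haem-binding membrane proteins. In the ruminant uterus oestradiol induces its own receptor, PGR and OXTR, and prolonged exposure to progesterone lowers PGR and, at first, holds ESR1 and OXTR down. At the end of the luteal phase the return of OXTR lets oxytocin drive the prostaglandin F2alpha pulses that end the life of the corpus luteum, and NR3C1 and NR3C2 mediate the responses to cortisol and aldosterone in most tissues.

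All levels below are log2 intensities after quantile normalization of the median spot signals over the 16 arrays, and the leading probe of a gene is the one with the highest mean level over the 16 arrays. A probe is called well above background as the scanner software marks it. Each probe binds with its own efficiency, so levels were compared between samples and not between probes. The median spot signal above local background ran from 79 to 316 over the arrays. The lowest value among the 8 endometrial arrays was that of SCE cow 833, with 79 against 248 to 316 in the other 7. The marker genes of that biopsy also stood apart. The mean log2 level of the 10 endothelium markers was 12.92 against 10.70 to 11.59 in the other 7 biopsies, that of the 9 measured stroma markers 12.15 against 12.77 to 13.82, and that of the 10 erythroid markers 8.28 against 7.66 to 7.94. Below, the status differences of the receptors and the counts of the gene lists are also given without this biopsy where leaving it out turned a sign or changed a count. The labelled tissues held against their markers, since the summed intensity of 10 leukocyte markers was 536941 to 630059 in WBC and 39663 to 92910 in endometrium, and that of the stroma markers was 17378 to 23184 in WBC and 78172 to 452143 in endometrium. The summed intensity of the 10 epithelium markers overlapped between the tissues, at 37529 to 87955 in endometrium and 42516 to 103981 in WBC, but their mean log2 level did not (10.01 to 11.93 and 8.85 to 9.23). All endometrial arrays lay on one slide and all WBC arrays on the other, each scanned once, so that tissue, slide and scan cannot be told apart. Each slide had 2 rows of 4 arrays with 2 healthy and 2 SCE cows in each.

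The sequences of 7 probes are shown, those of ESR1 because its probes ranked the cows differently and the others to show which stretch of the receptor a probe reads. Each is 60 bases long, printed 5′ to 3′ in the sense of the transcript, with positions on the build that the scanner files name, HGSC Btau_3.1. Capitals mark codons found by a search of the open reading frames for zinc finger sequence. In PGR they cover the stretch at the end of the first zinc finger that reads the hormone response element, and in ESR2 and NR3C1 they cover the last pair of zinc-binding cysteines of the second finger. The 3 ESR1 probes and the other ESR2 probe held neither stretch and carry no capitals.
PGR A_73_111533, chr15:6409149-6409208, plus strand: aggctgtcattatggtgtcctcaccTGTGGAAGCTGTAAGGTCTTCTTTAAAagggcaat
NR3C1 A_73_P085356, chr7:53985788-53985847, minus strand: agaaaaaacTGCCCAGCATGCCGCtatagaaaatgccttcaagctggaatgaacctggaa
ESR2 A_73_P102916, chr10:78633923-78633982, minus strand: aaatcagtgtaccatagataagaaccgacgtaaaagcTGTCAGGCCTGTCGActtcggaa
ESR2 A_73_P052281, chr10:78596877-78614266, minus strand: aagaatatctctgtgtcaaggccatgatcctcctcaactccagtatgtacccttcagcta
ESR1 A_73_P110186, chr9:92321948-92322007, plus strand: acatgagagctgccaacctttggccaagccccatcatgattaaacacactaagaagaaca
ESR1 A_73_P109096, chr9:92463499-92492661, plus strand: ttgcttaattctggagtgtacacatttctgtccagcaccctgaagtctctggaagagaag
ESR1 A_73_P108811, chr9:92492781-92497702, plus strand: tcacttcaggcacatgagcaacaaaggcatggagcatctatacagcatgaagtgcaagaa

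Of these, A_73_P052281, A_73_P109096 and A_73_P108811 cover 17390, 29163 and 4922 bases of the genome with 60 bases of probe, so they join exons across an intron. The leading OXTR probe, A_73_100134, lies at chr22:18295234-18295293 and starts at base 2146 of its transcript, and the second, A_73_P416286, starts at base 1723. Leading probes of the other genes lie at chr10:78593759-78593818 (ESR2), chr17:31318521-31318580 (PGRMC2), chr17:10838658-10838717 (NR3C2) and on an unplaced contig (PGRMC1).

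The status comparison asked whether receptor levels differed between cows with SCE and healthy cows. None of the 22 probes passed limma's test in the endometrium at an adjusted p of 0.05, and across the array 0% of 46578 probes did. At an unadjusted p of 0.05 limma called none of the 22, where it called 0.453% of all probes, and no probe separated the 4 SCE from the 4 healthy cows, where 1.63% of all probes did. In WBC again none of the 22 passed (0% of all probes), none at an unadjusted p of 0.05 (0.122% of all probes), and none separated the groups (1.3% of all probes). Without the biopsy of cow 833 the receptor counts in endometrium were 0 at the adjusted and 0 at the unadjusted threshold. Of all 46565 probes 0 and 252 passed there. The difference of the SCE effect between endometrium and WBC, tested as an interaction, passed for none of the 22 probes at an adjusted p of 0.05 (0% of all probes) or at an unadjusted one (1.79% of all probes). The two-sided exact permutation test used below for single probes has 70 splits and cannot give a p under 0.0286.

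**Figure D1:**
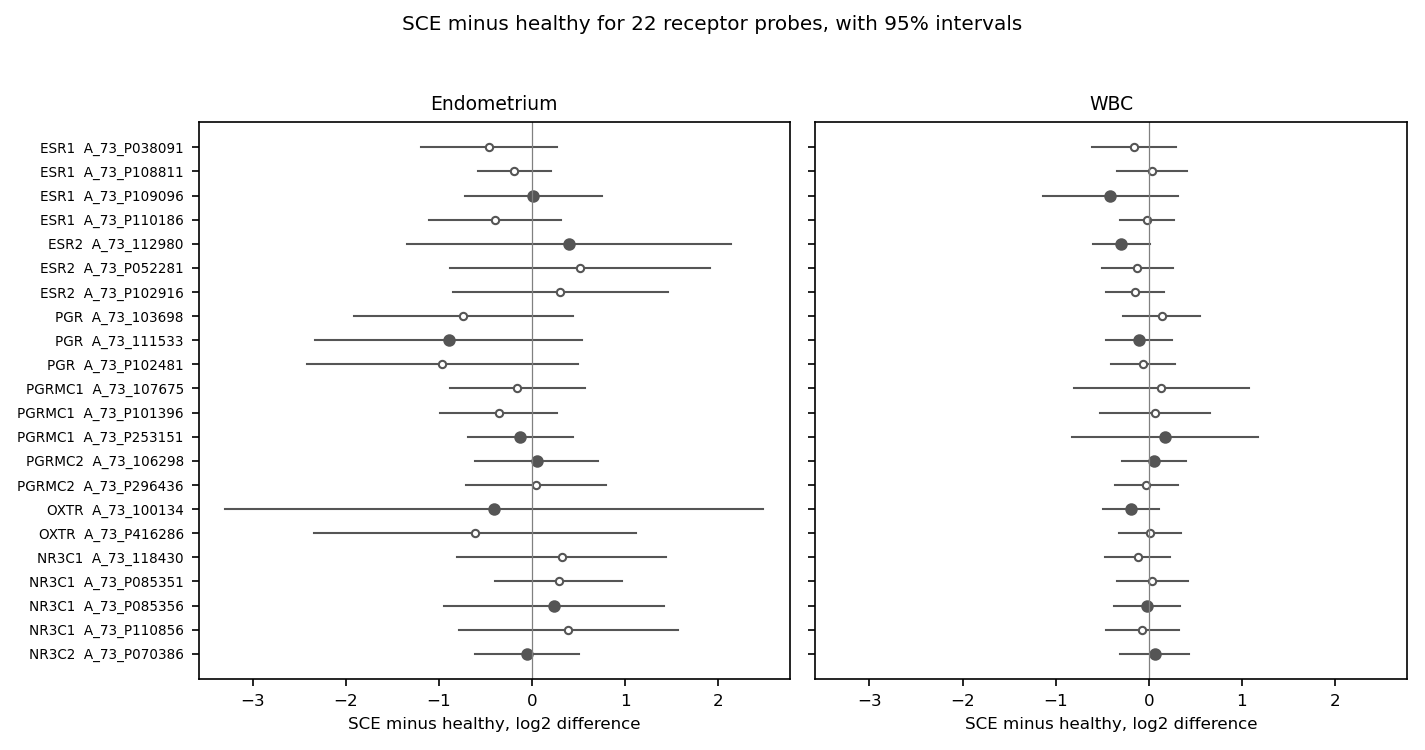
SCE minus healthy on the log2 scale for the 22 receptor probes in endometrium (left) and WBC (right), each n = 4 against 4. Points are limma estimates with 95% intervals, filled for the leading probe of a gene. All intervals include 0, and the widest, for OXTR in endometrium, runs from -3.29 to 2.48.

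The tissue comparison asked where each receptor was expressed. Of the 22 probes 19 passed limma's test between endometrium and WBC, where 53.9% of all probes did. Of these 16 were higher in endometrium, against 22.7% of all probes, and 3 were lower, against 31.2%. The 8 endometrial and 8 WBC values did not overlap for 13 of the 22 probes, against 37% of all probes. Every probe of PGR, PGRMC1, PGRMC2, OXTR and NR3C2 passed and was higher in endometrium, and the 3 probes that passed in the other direction were all of NR3C1. Normalizing each tissue on its own moved the median difference of all probes from -0.16 to 0.35 and the share of higher among the called probes from 42% to 79.2%. The receptor counts became 18 higher and 1 lower under it, where 41.3% of all probes were called higher and 10.8% lower. The processed scanner signal, where the median was -0.40, gave 16 higher and 4 lower (23.2% and 37% of all probes). With tissue tested within healthy cows 17 of the 22 probes passed (46.5% of all probes), and within SCE cows 17 (45.3% of all probes). Biopsies and blood are mixtures, so fewer cells of a type and less RNA per cell cannot be told apart in any of these values.

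**Figure D2:**
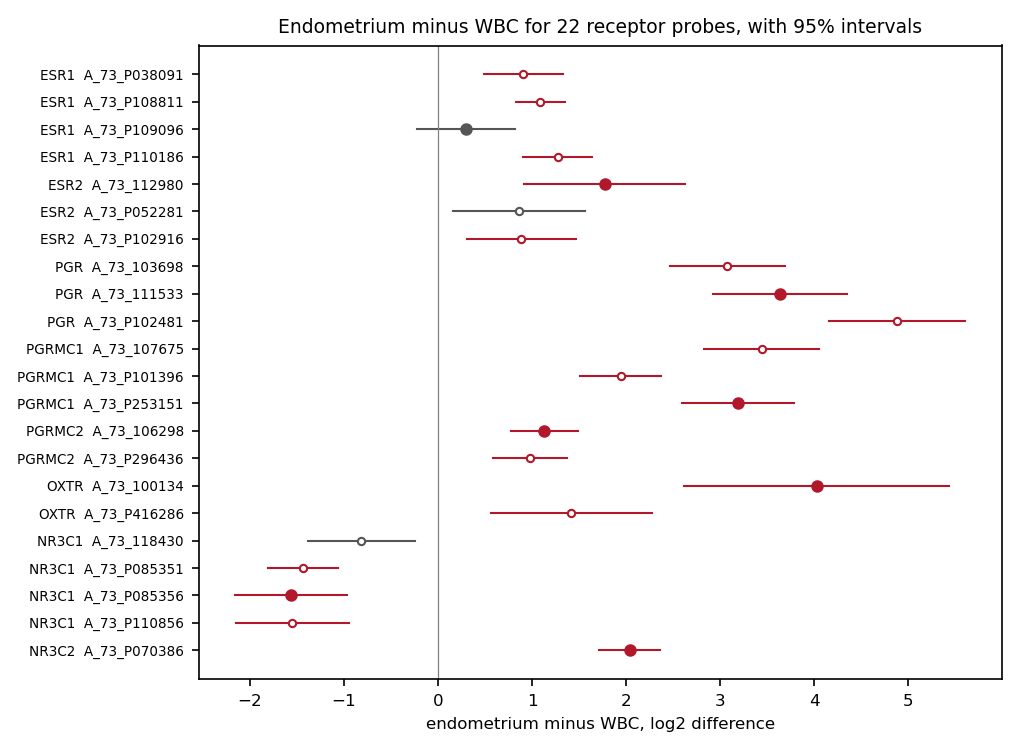
Endometrium minus WBC on the log2 scale for the 22 receptor probes, n = 8 cows in each tissue. Points are limma estimates with 95% intervals, filled for the leading probe of a gene and red where the adjusted p is at or below 0.05. Differences run from 4.88 for PGR probe A_73_P102481 to -1.56 for the leading NR3C1 probe.

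OXTR, the receptor through which oxytocin acts on the uterus, varied more between cows than the other receptors. The leading probe read 12.44, 11.01, 8.65 and 7.18 in the endometrium of healthy cows 841, 850, 877 and 883. It read 11.50, 10.05, 7.27 and 8.85 in that of SCE cows 718, 833, 836 and 846. Both groups thus held cows at either end, and they overlapped over nearly the whole range. The lowest and highest cows, both healthy, differed 38.4-fold, and the SD over the 8 biopsies (1.95) lay above that of 99.6% of the 27622 probes well above background on all of them. SCE minus healthy was -0.40 (SE 1.26, limma adjusted p = 1, exact permutation p = 0.83), with a 95% interval of -3.29 to 2.48, so a difference of several-fold either way was not detectable with 4 cows a group. The sign depended on single animals, at 0.47 without healthy cow 841 and 0.31 without SCE cow 836.

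The order of OXTR followed the row of the slide. The 4 biopsies hybridised in row 1 read 10.05 to 12.44 and the 4 in row 2 read 7.18 to 8.85, without overlap. Row 2 minus row 1, with status in the limma fit, was -3.27 (SE 0.59), at an unadjusted p of 0.000843 and an adjusted p of 1 over all probes. Over all probes 4.54% separated the rows in endometrium, and among the 22 receptor probes OXTR A_73_100134 and PGRMC2 A_73_P296436 did. Each row held 2 cows of each status, and within the rows SCE minus healthy for OXTR was -0.95 and 0.14. Each biopsy was on 1 array, so the place on the slide and the cow cannot be told apart.

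In WBC the leading OXTR probe was at 5.33 to 5.92 and not well above background in any cow. Endometrium was at least 14.4-fold higher (measured means 9.62 ± 1.95 and 5.59 ± 0.17, SD, n = 8 each), where the bound sets each WBC array to the lowest level that was well above background there, or to the measured level of the probe if that was higher. The limma adjusted p was 9.07e-05, and endometrium was higher in 8 of 8 cows (exact sign-flip permutation p = 0.00781, the smallest that 8 cows allow). The second OXTR probe was dimmer. It was well above background in the endometrium of cows 841, 850 and 718 only, which also ranked as the top 3 cows by the leading probe.

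**Figure D3:**
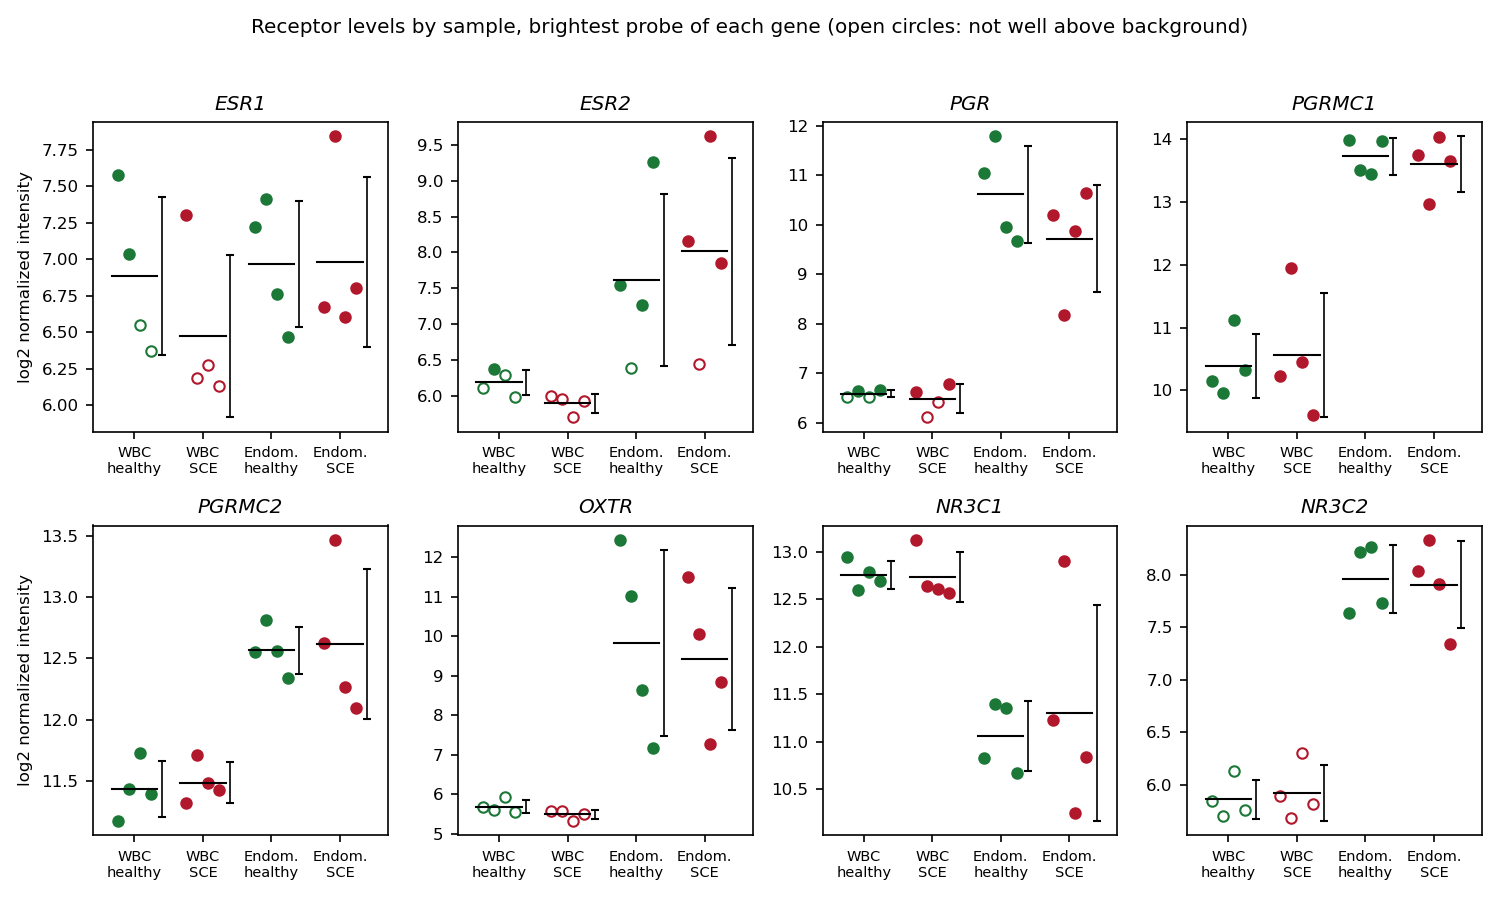
Log2 normalized intensity of the leading probe of each receptor in the 16 samples, by tissue and status (green healthy, red SCE, cows in order of their number within a group). Open circles were not well above background, horizontal lines are group means and bars the SD (n = 4). The endometrial OXTR values span 7.18 to 12.44 and those of WBC stay at or below 5.92.

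PGR encodes the nuclear progesterone receptor. Its leading probe read 11.05, 11.80, 9.96 and 9.67 in the endometrium of healthy cows 841, 850, 877 and 883, and 10.19, 8.18, 9.87 and 10.65 in that of SCE cows 718, 833, 836 and 846. The 2 highest cows were healthy and the lowest was SCE cow 833, while the other 5 lay within both groups' ranges. SCE minus healthy was -0.89 (SE 0.63, limma adjusted p = 1, unadjusted p = 0.222, exact permutation p = 0.314), the largest mean difference among the leading probes. The other probes of PGR gave -0.74 and -0.96. Without cow 833 the leading probe gave -0.38, and within the slide rows it gave -2.24 in the row that held cow 833 and 0.45 in the other, so the lower mean in SCE cows was not seen in both rows. The endometrial range was 12.3-fold with cow 833 and 4.36-fold without it, and the SD lay above that of 96.4% and 93.6% of probes, respectively.

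WBC read 6.11 to 6.78 with the leading PGR probe, well above background in 4 of 8 cows, and 5.03 to 5.65 with probe A_73_P102481, which was not well above background in any. Endometrium was 12.4-fold higher by the leading probe (log2 difference 3.63, SE 0.34, limma adjusted p = 2.08e-07) and at least 22.6-fold higher by A_73_P102481 (measured means 10.25 and 5.37, adjusted p = 6.32e-09). Each of the 3 PGR probes was higher in endometrium in 8 of 8 cows.

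ESR1 encodes oestrogen receptor alpha, the main oestradiol receptor of the uterus, and its probes did not rank the cows alike. Probe A_73_P110186 read 7.72, 8.23, 7.32 and 6.86 in healthy endometrium (cows 841, 850, 877, 883) and 7.11, 6.62, 7.52 and 7.29 in SCE endometrium (718, 833, 836, 846), with cow 833 lowest and not well above background. The leading probe A_73_P109096 read 7.23, 7.41, 6.76 and 6.47 in the healthy cows and 6.67, 7.85, 6.60 and 6.81 in the SCE cows. By that probe cow 833 was the highest of the 8. Over the 8 biopsies its Pearson correlation with the other 3 ESR1 probes was -0.23 to 0.26, whereas those 3 correlated with each other at 0.82 to 0.95, given here as a description over arrays that share their processing. The status difference (SCE minus healthy) was 0.01 (SE 0.32) for the leading probe, with a 95% interval of -0.72 to 0.75, and -0.40 (SE 0.31) for A_73_P110186, with limma adjusted p = 1 for both. The sign for the leading probe turned without cow 833, at -0.27.

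The tissue call for ESR1 also depended on the probe and on the normalization. A_73_P110186 was not well above background in any WBC sample and at least 2.39-fold higher in endometrium (measured means 7.34 and 6.06, limma adjusted p = 5.47e-05). A_73_P108811 gave a log2 difference of 1.09 (SE 0.12, adjusted p = 1.35e-05), also without overlap. By the leading probe the WBC of cows 841, 850 and 718 read 7.58, 7.04 and 7.30, within the endometrial range, and those of the other 5 cows 6.13 to 6.55, none of them well above background. That probe did not pass, with a difference of 0.29 (SE 0.24, adjusted p = 0.633). With each tissue normalized on its own every ESR1 probe passed, the leading one at 0.95 (adjusted p = 0.0133). The median difference of all probes was then 0.35.

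ESR2 encodes oestrogen receptor beta. Its leading probe read 7.54, 6.39, 7.27 and 9.26 in healthy endometrium (cows 841, 850, 877, 883) and 8.16, 6.44, 9.62 and 7.85 in SCE endometrium (718, 833, 836, 846). The highest cow of each group, 883 and 836, stood above the rest, and cows 850 and 833 were not well above background. The range was 9.39-fold. Between the status groups the difference was 0.40 (SE 0.76, 95% interval -1.34 to 2.14, limma adjusted p = 1, exact permutation p = 0.629). It was 0.93 without cow 833, -0.13 without SCE cow 836 and -0.01 without healthy cow 850. In WBC only healthy cow 850 was well above background, at 6.37. The measured means differed 3.42-fold, higher in endometrium (log2 difference 1.77, SE 0.40, adjusted p = 0.00247). The zinc finger probe A_73_P102916 was well above background in 4 of 8 biopsies and in no WBC sample, and endometrium was at least 1.57-fold higher (measured means 6.41 and 5.52, adjusted p = 0.0353). The probe across the intron, A_73_P052281, did not, at 0.86 (SE 0.33, adjusted p = 0.0841).

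Set side by side, OXTR, PGR, ESR1 and ESR2 did not all rank the cows alike. Healthy cow 883 and SCE cow 836 had the 2 lowest OXTR levels and the 2 highest ESR2 levels. Healthy cow 850 had the highest PGR and the highest ESR1 by A_73_P110186, the third highest OXTR, and ESR2 not well above background. Cow 833 was lowest in PGR and in ESR1 by A_73_P110186, and its ESR2 was not well above background either, while its OXTR lay in the upper part of the range. Over the 8 biopsies the Pearson correlation of the leading ESR2 probe was -0.62 with that of OXTR (-0.66 without cow 833) and -0.11 with that of PGR (-0.79 without cow 833). Among all pairs of leading probes the lowest was -0.94, for PGRMC1 with NR3C1 (-0.85 without cow 833). The highest was 0.93, for PGRMC2 with NR3C1 (0.73 without cow 833). The leading ESR1 probe gave -0.14 with that of PGR, but 0.96 without cow 833. These are descriptions over arrays that share a slide, and the cows at either end came from both status groups.

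**Figure D4:**
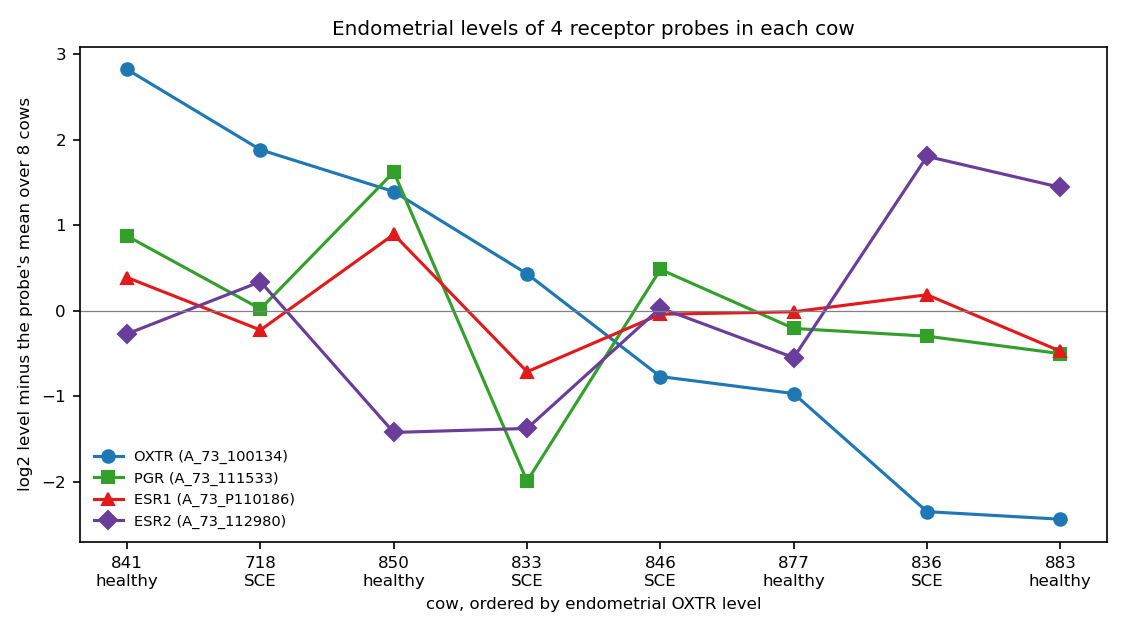
Endometrial log2 level of an OXTR, PGR, ESR1 and ESR2 probe in each cow, as the difference from the probe's mean over the 8 cows, which are ordered by OXTR from left to right and labelled with their status. ESR2 is highest in cows 836 and 883, where OXTR is lowest, and PGR and ESR1 by probe A_73_P110186 are lowest in cow 833, where that ESR1 probe was not well above background, and highest in cow 850. By the leading ESR1 probe, which is not drawn, cow 833 was the highest.

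PGRMC1 and PGRMC2 are membrane proteins that carry progesterone signals outside the nucleus and take part in haem and steroid metabolism. Both were measured on all 16 arrays. The leading PGRMC1 probe read 13.98, 13.50, 13.44 and 13.97 in healthy endometrium (cows 841, 850, 877, 883) and 13.75, 12.97, 14.02 and 13.65 in SCE endometrium (718, 833, 836, 846), with cow 833 lowest. WBC read 9.62 to 11.94, and the highest of these was cow 833 as well. The WBC array of that cow also had the highest median spot signal above local background on its slide, at 202.5 against 83 to 132. Endometrium was 9.11-fold higher (log2 difference 3.19, SE 0.28, limma adjusted p = 1.28e-07). SCE minus healthy was -0.13 in endometrium (SE 0.25, 95% interval -0.69 to 0.44) and 0.17 in WBC (SE 0.45, interval -0.83 to 1.17), with adjusted p = 1 for both. Without cow 833 the signs turned, to 0.08 and -0.29.

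PGRMC2 moved the other way in cow 833. Its leading probe read 12.55, 12.81, 12.56 and 12.34 in healthy endometrium and 12.63, 13.47, 12.27 and 12.09 in SCE endometrium, in the same order of cows, so that cow 833 was highest. WBC read 11.18 to 11.73. Endometrium was 2.19-fold higher (log2 difference 1.13, SE 0.17, adjusted p = 1.82e-04), in 8 of 8 cows and without overlap, as for the second probe (1.97-fold, adjusted p = 0.00199). The status difference was 0.05 in endometrium (SE 0.29, interval -0.61 to 0.71), and -0.24 without cow 833. In WBC it was 0.05 (SE 0.15, interval -0.29 to 0.40).

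NR3C1, the glucocorticoid receptor, was the receptor with more signal in blood. Its leading probe read 12.94, 12.60, 12.78 and 12.69 in the WBC of healthy cows 841, 850, 877 and 883, and 13.13, 12.64, 12.60 and 12.56 in that of SCE cows 718, 833, 836 and 846. In endometrium it read 10.82, 11.40, 11.35 and 10.67 in the healthy cows and 11.23, 12.90, 10.25 and 10.83 in the SCE cows. Only the biopsy of cow 833 reached the WBC level, at 12.90, and the other 7 were below every WBC sample. WBC was 2.95-fold higher (endometrium minus WBC -1.56, SE 0.28, limma adjusted p = 4.83e-04), in 7 of 8 cows (exact sign-flip permutation p = 0.0156). Without cow 833 the difference was -1.84 (adjusted p = 7.79e-07). Probes A_73_P110856 and A_73_P085351 gave -1.55 and -1.43, with adjusted p = 5.48e-04 and 1.67e-05, and A_73_118430 gave -0.82 and did not pass (adjusted p = 0.0518). The call of the leading probe was lost when each tissue was normalized on its own, at -0.80 (adjusted p = 0.0566). That of A_73_P110856 was lost as well, at -0.60 (adjusted p = 0.227), and A_73_118430 gave -0.0164. Only A_73_P085351 still passed, at -0.75 (adjusted p = 0.0224).

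NR3C1 in cow 833 was high by all 4 probes, each of which gave that cow the highest endometrial value. The leukocyte markers of that biopsy, at a mean log2 level of 10.69, lay within the 10.65 to 11.53 of the other 7. So did the mean levels of the neutrophil markers (7.96 against 7.26 to 8.03) and of the lymphocyte markers (8.84 against 8.83 to 9.57), but their summed intensity was above that of the other 7, at 7332 against 2429 to 5356 for neutrophil and 21338 against 13304 to 19724 for lymphocyte markers. The erythroid and endothelium markers also lay above the others, as given above. The part of these cell types in the NR3C1 level was not tested. SCE minus healthy for the leading probe was 0.24 in endometrium (SE 0.52, 95% interval -0.94 to 1.42, exact permutation p = 0.83) and -0.29 without cow 833. In WBC it was -0.02 (SE 0.16), with an interval of -0.38 to 0.34.

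NR3C2, the mineralocorticoid receptor, was read by 1 probe. It gave 7.63, 8.21, 8.26 and 7.73 in healthy endometrium (cows 841, 850, 877, 883) and 8.03, 8.33, 7.92 and 7.34 in SCE endometrium (718, 833, 836, 846), well above background in all, and 5.68 to 6.30 in WBC, well above background in none. Endometrium was at least 4.01-fold higher (measured means 7.93 and 5.89, limma adjusted p = 3.10e-08), in 8 of 8 cows. Between SCE and healthy cows it differed by -0.06 in endometrium (SE 0.24, interval -0.61 to 0.50) and 0.06 in WBC (SE 0.17).

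The endometrial spread within each status group differed between receptors. OXTR had an SD of 2.36 in healthy and 1.80 in SCE cows (n = 4 each), ESR2 1.2 and 1.31, and PGR 0.98 and 1.08. NR3C1 had 0.37 and 1.14, and PGRMC1, PGRMC2, ESR1 and NR3C2 stayed at or below 0.61 in both. The median SD of all probes well above background was 0.25 in healthy and 0.35 in SCE endometrium. Much of the spread in the SCE group came with cow 833. Without it the SD over the other 3 SCE cows was 0.39 for PGR, 0.49 for NR3C1, 0.10 for the leading ESR1 probe, 0.19 for PGRMC1 and 0.27 for PGRMC2, and the median of all probes was 0.22. It was 2.14 for OXTR, 0.95 for ESR2 and 0.37 for NR3C2. In WBC the SDs were smaller than in endometrium for OXTR, PGR, ESR2, NR3C1 and NR3C2 in both groups, of which NR3C1 was well above background on all WBC arrays. They were larger for PGRMC1, at 0.51 and 0.99 against 0.29 and 0.45.

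The named genes with the most similar profile over the 8 endometrial arrays were picked as the highest Pearson correlations among the probes well above background on all 8, so the values are a description and many probes compete for them. For OXTR they were SUGT1 (0.98), CSE1L (0.97) and NUDT3 (0.96), all of which kept within narrow ranges, SUGT1 between 11.53 and 11.97. For PGR they were SF3B3 (0.98), NOP9 (0.98) and HSP90AA1 (0.97), the last of which encodes the chaperone that holds steroid receptors ready to bind hormone. For the leading ESR1 probe they were LRRC8A, COMP and PHC2 (0.97 to 0.99), for PGRMC1 PLPP2, FH and APTX (0.99 each) and for PGRMC2 SARS2, WTAP and TIE1 (0.98 each), TIE1 being an endothelial receptor. For NR3C1 they were UBE3B, GYPC and ITPRIP (0.99 each), and for NR3C2 TPCN2 (0.97) and CRBN (0.96). In WBC they were SLC40A1, ARPC2 and XBP1 for PGRMC1 (0.98 to 0.99), GJB2, GAPVD1 and GGA3 for PGRMC2 (0.97 to 0.98) and SCRN2, PITX1 and LARGE2 for NR3C1 (0.92 to 0.96). ESR2 had endometrial values near background and was not compared.

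The genes around the receptors were taken from 8 lists, each gene by its leading probe. In SCE against healthy endometrium none of the measured genes of any list passed limma's test at an adjusted or an unadjusted p of 0.05, and none separated the groups. The median difference over all probes was -0.005. Of 19 measured genes of the glucocorticoid response 17 were higher in SCE (median 0.31), and without cow 833 15 of 19 (median 0.39), where 49% and 44.2% of all probes were higher. In this list DUSP1 and ZFP36 stood out in SCE cow 718, at 16.41 against at most 14.12 and 14.24 against at most 11.37. By contrast FKBP5 was highest in SCE cow 836 and TSC22D3 in healthy cow 883. The count was not taken without cow 718. FKBP5, a chaperone induced by cortisol and progesterone, gave 0.95 (SE 0.59) and ZFP36, which destabilizes inflammatory mRNAs, 1.19 (SE 1.01), against SOCS1 at -0.57 and ERRFI1 at -0.22. Of 11 mineralocorticoid response genes 9 were higher with cow 833 (median 0.29) and without it. PER1 was at 0.63 and ZBTB16 at 0.50, against CNKSR3 at -0.50 and ATP1B1 at -0.26. PER1, ZBTB16, SGK1 and TSC22D3 are also in the glucocorticoid response list, so the counts of these lists are not independent.

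In the oestrogen response list 9 of 16 genes were higher in SCE endometrium (median 0.02, and 10 without cow 833), with AGR2 at 1.79 (SE 0.85) and PDZK1 at 1.1 (SE 1.54) against IGF1 at -0.67 and CCND1 at -0.29. In the progesterone response list 10 of 18 were higher (median 0.06), and 9 without cow 833 (median -0.01), with FKBP5 as above and SERPINA14, which encodes uterine milk protein, at 0.75 (SE 1.26), against SPP1 at -1.74 (SE 0.85) and FKBP4 at -0.45. In the oxytocin pathway 17 of 23 were higher (median 0.08, and 15 without cow 833), with RGS4 at 2.19 (SE 1.07) and PTGS2, the inducible enzyme of prostaglandin synthesis, at 1.76 (SE 1.29) against RGS2 at -0.75 and PRKCA at -0.69. ITPR1 is among those 23 genes and read 19.45 in every biopsy, so its direction in these counts has no meaning. In steroid ligand metabolism 16 of 20 were higher (median 0.08), but 12 without cow 833 (median 0.06), with AKR1C4 at 1.63 (SE 1.08) and AKR1C3 at 1.24 (SE 0.81) against STAR at -0.71 and HSD11B2, which inactivates cortisol, at -0.67. Among receptor relatives 11 of 17 were higher (median 0.06), but 8 without cow 833 (median -0.05), with PAQR6 at 0.76 and AVPR1A at 0.68 against NR2F1 at -1.16 and NR2F2 at -0.33. Among chaperones and coregulators 7 of 17 were higher (median -0.05, and 6 without cow 833), with FOXA2 at 0.34 against GATA2 at -0.46 and FKBP4 as above. Without cow 833 AVPR1A, GATA2, FOXA2, ERRFI1, ATP1B1, HSD11B2 and RGS2 changed sign. Other differences in these lists also rested on 1 cow. Without SCE cow 718 ZFP36 was at 0.15, PTGS2 at 0.50 and SERPINA14 at -0.35, and without healthy cow 850 STAR was at -0.0428, SOCS1 at -0.0767 and CCND1 at -0.0439. Without healthy cow 841 PDZK1 was at 0.27, PER1 at 0.22, FKBP4 at -0.20 and ZBTB16 at -0.0681, and without healthy cow 877 NR2F2 was at -0.0667.

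In WBC no list gene passed either threshold in SCE against healthy cows. Among the genes of the 8 lists SRD5A1 (-0.37), TAT (-0.37) and PLCB1 (0.28) separated the groups, where 1.3% of all probes did, and of these SRD5A1, an enzyme that reduces testosterone and progesterone, was well above background in all 8 WBC samples and the others in none. Over the other list genes well above background in all 4 WBC samples of a group, the largest differences per list ran from -0.63 to 0.42.

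Several hormone response genes varied as widely between the biopsies as the receptors did. Of 12 progesterone response genes well above background on all 8 endometrial arrays, 6 had an SD above the 95th percentile of all such probes, as did 9 of 17 glucocorticoid response genes, 4 of 11 oestrogen response genes, 4 of 12 steroid metabolism genes, 3 of 9 mineralocorticoid response genes, 2 of 19 oxytocin pathway genes, and 1 each of the 16 chaperones and coregulators and of the 11 receptor relatives. FKBP5, ZBTB16 and TSC22D3 are in more than 1 of these lists and were counted in each. The following were picked for their spread after the values were seen. PDZK1 ranged 93.9-fold, from 8.50 in cow 841 and 8.69 in cow 850 to 13.86 in cow 836 and 15.05 in cow 883, with the latter pair being the cows lowest in OXTR and highest in ESR2. AKR1C4 read 11.98 in cow 883 and 12.09 in cow 836 and at most 10.93 in the others. Cows 883 and 836 also had the highest epithelium marker levels, as given above, and the part of epithelium in these genes was not tested. IHH, the epithelial signal that progesterone induces, ranged from 9.19 in cow 833 and 10.88 in cow 877 to 15.16 in cow 836. PTGS2 was highest in SCE cow 718, at 13.80 against at most 10.61 in the others. PDZK1, like OXTR, separated the slide rows without overlap, but was higher in row 2. The list genes ESRRG, PTGES3, DNAJA1, MYC, FOXO1, DDIT4, HSD17B4, HSD17B8, PLCB4, RGS2 and RHOA separated the rows too. With PDZK1 these were 3 of 19 oxytocin pathway genes and 2 each of 16 chaperones and coregulators, 12 steroid metabolism and 11 oestrogen response genes. The other lists gave 1 of 12 for progesterone, 1 of 17 for glucocorticoid and 0 of 9 for mineralocorticoid response, and 1 of 11 receptor relatives. Over all probes 4.54% separated the rows, and the lists were not tested against that share.

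Between the tissues the lists divided, where 22.7% of all probes passed higher in endometrium and 31.2% lower. Of 18 progesterone response genes 9 passed higher in endometrium and 5 lower, with NR2F2 (log2 difference 7.99) and IHH (6.57) at the top and DGAT2 (-4.08) and FOXO1 (-1.35) at the bottom. The counts were 8 and 4 of 16 for the oestrogen response, led by PDZK1 (4.95) and IGF1 (4.46) and by MYB (-1.56) and CELSR2 (-1.40). They were 8 and 6 of 19 for the glucocorticoid response, with ERRFI1 (4.31) and TAT (3.00) against CD163 (-2.36) and IL1R2 (-2.11), and 7 and 2 of 11 for the mineralocorticoid response, with ATP1B1 (4.28) and CNKSR3 (3.37) against TSC22D3 (-1.95). Of 23 oxytocin pathway genes 6 passed higher, led by PLCB4 (4.74) and MYLK (3.76), and 10 lower, led by PLCB2 (-2.76) and LNPEP (-2.14), the membrane enzyme that degrades oxytocin. Steroid metabolism gave 6 and 6 of 20, with HSD11B2 (5.14) and AKR1C4 (1.96) against HSD17B1 (-1.15) and CYP17A1 (-1.04). Receptor relatives gave 6 and 5 of 17, with NR2F1 (8.18) and NR2F2 as above against ESRRA (-1.70) and AVPR2 (-1.54). Chaperones and coregulators gave 7 and 5 of 17, with GATA2 (4.10) and PTGES3 (2.56) against NCOA2 (-2.49) and NCOA3 (-1.93), both nuclear receptor coactivators. With each tissue normalized on its own MYB, CELSR2, FOXO1 and CYP17A1 no longer passed.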

How the data were processed

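Per the study's methods, RNA was labelled with cyanine 3 and hybridised to a custom 60-base bovine array, 8 arrays per slide. The authors extracted spot intensity with Agilent Feature Extraction 10.10.1.1 and quantile-normalized median signals. Their deposited table holds these normalized intensity values on the linear scale (median difference from the same step repeated here at most 0.101% per array). From the deposited scanner intensity values, log2 median signals without background subtraction were quantile-normalized over 16 arrays. Outlier spots (none among the receptor probes) and control spots were left out and spots of 1 probe averaged.

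limma 3.58.1 (R 4.3.3) fitted each tissue alone for SCE against healthy cows and all 4 groups for tissue, with treat at a 1.2-fold threshold, and the interaction without one. Benjamini-Hochberg adjustment ran over all probes. p-values rest on 4 cows a group. The fits were tested on simulated data. Arrays, unlike reads, give no counts, and their number limits the precision.

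The same cows gave both tissues. The correlation of a cow's deviations from its group means between tissues ran from -0.33 to 0.14, over 23893 probes.

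Genes named were all receptor probes, list genes separating the status groups, the 2 largest differences each way per list among probes well above background, and the 3 closest profiles, of which 1 is not reported here. In WBC the 2 largest per list are not named. The receptors and lists were chosen with earlier results of these data known. Symbols come from RefSeq (ARS-UCD2.0) for 26517 probes by accession, otherwise from the files. Alternatives were other normalizations, filters, priors, blocks, probe averaging and leaving out each cow.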

Additional observations from a re-analysis of the deposited data

Results flagged for a closer look

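Over the 22 receptor probes and 4 groups, 88 sets of 4 cows were examined for one value far from the other 3, by the share of the set's range taken up by the gap to the nearest value (Dixon's ratio at its 95% critical value). Chance passes about 1 in 20 sets, and 8 of the 88 passed. In WBC sets with no array well above background these were ESR1 A_73_P038091 in healthy cow 877 (0.835), ESR2 A_73_P102916 in healthy cow 850 (0.925), OXTR A_73_P416286 in healthy cow 841 (0.854), PGR A_73_P102481 in SCE cow 718 (0.875) and ESR2 A_73_P052281 in SCE cow 833 (0.86). ESR1 A_73_P109096 was far from the others in WBC of SCE cow 718 (0.877), at 7.30 against at most 6.27, and in endometrium of SCE cow 833 (0.836), at 7.85 against at most 6.81. NR3C1 A_73_P085356 stood apart in WBC of SCE cow 718 (0.871), at 13.13 against at most 12.64.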

How the results depend on the processing

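The counts of receptor probes between status groups and of the interaction were 0 under every alternative run. Of the 22 probes, 19 passed between tissues, and 18 to 21 with one cow left out. Averaging the probes of a gene gave 8 of 8 genes, a smaller number by construction. Within healthy cows leaving one out gave 14 to 19, and within SCE cows 13 to 20. With cow as a replicate block, which pairs the tissues, 20 probes passed between tissues, 17 in healthy and 16 in SCE cows, and 0 for the interaction. In the main fits 53.9% of all probes passed between tissues, 46.5% within healthy and 45.3% within SCE cows. The shares of all probes were not taken with a cow left out, with cow as a block or with probes averaged. The receptor counts there thus have no background beside them.

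Signs near 0 turned for the leading ESR1 probe in endometrium at -0.0335 with normexp background correction. In WBC they turned for NR3C2 at -0.0426 with normexp and -0.0558 with the processed signal, and for PGRMC2 at -0.00813 with the processed signal. The cause of these turns was not tested. The mean of the ESR1 probes gave -0.26 in endometrium. It takes in A_73_P038091, A_73_P108811 and A_73_P110186, whose means were lower in SCE (6.56, 7.16 and 7.14) than in healthy cows (7.01, 7.35 and 7.53).

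With one cow left out, SCE minus healthy in endometrium ran over ranges that included both signs. These were -1.28 to 0.47 for OXTR, -0.27 to 0.16 for ESR1, -0.13 to 0.95 for ESR2, -0.27 to 0.0834 for PGRMC1, -0.24 to 0.22 for PGRMC2, -0.29 to 0.59 for NR3C1 and -0.20 to 0.13 for NR3C2. In WBC they were -0.20 to 0.0238 for PGR, -0.29 to 0.48 for PGRMC1, -0.0341 to 0.15 for PGRMC2, -0.15 to 0.0432 for NR3C1 and -0.0643 to 0.15 for NR3C2. Among list genes in endometrium they were -0.10 to 1.02 for AVPR1A, -0.70 to 0.027 for GATA2, -0.0126 to 0.68 for FOXA2, -0.35 to 1.63 for SERPINA14, -0.72 to 0.30 for ERRFI1, -0.80 to 0.21 for ATP1B1, -0.0681 to 0.97 for ZBTB16, -1.34 to 0.34 for HSD11B2 and -1.17 to 0.11 for RGS2. Endometrium minus WBC in healthy cows ran from -0.0156 to 0.23 for the leading ESR1 probe.

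The tissue call of NR3C1 within SCE cows was lost without cow 718, 836 or 846, and that of ESR2 without cow 836. Within healthy cows the leading ESR2 probe gave 1.42 and did not pass in the main fit, and it gave 0.81 to 1.89 with one cow left out. Its limma adjusted p there ran from 0.0142 to 0.347 over the alternatives. It passed in 5 of 13 of them, so a call there depended on the setting too. The OXTR range over the biopsies lay between 4.32 and 5.68 on the log2 scale under other normalizations and with one cow left out. These, the order of the cows and the lists and SDs without cow 833 were chosen after seeing the data. Signal near background limits OXTR, NR3C2, ESR2 and most PGR and ESR1 readings in WBC.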
